A study of Homo sapiens with 12 samples.

Results

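The 9 genes described here encode enzymes that make serine and pass its carbon to folate: PHGDH, PSAT1, PSPH, SHMT1, SHMT2, MTHFD1, MTHFD1L, MTHFD2 and ALDH1L2. They were taken by symbol from count tables of 55765 genes, and all 9 were found in each of the 12 libraries. The libraries are RNA-seq of Hs 578T, a triple-negative breast cancer (TNBC) line, in 4 groups of 3: cells over-expressing GFP (control) with Cyss, GFP cells without Cyss, cells over-expressing NRF2 with Cyss, and NRF2 cells without Cyss. Cyss is cystine, the oxidized dimer of cysteine that cells take up from the medium, and the control medium had 0.8 mM of it. All groups were transduced with lentivirus and were kept for 8 h in the test medium, which still had serum, methionine and glutamine in it. Whether a clone was picked and which promoter drove the transgene are not given in the sources used here. NRF2 (gene NFE2L2) is a transcription factor of the oxidative stress response, and the design allows the response to Cyss deprivation to be compared with and without exogenous NRF2. The exogenous form was full length, and the authors report that only a mutant lacking the part bound by KEAP1 was insensitive to Cyss deprivation. The level of the exogenous protein may therefore differ between the media, and RNA counts do not measure it. The labels do not say whether the 3 libraries of a group came from separate cultures, so the p-values measure the spread between these libraries, which may be technical.

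Serine is made from a glycolytic intermediate in the order PHGDH, PSAT1 and PSPH. The serine hydroxymethyltransferases then split serine into glycine and a one-carbon unit carried by folate, SHMT2 in mitochondria and SHMT1 in the cytosol. In mitochondria the unit is oxidized by MTHFD2 and released as formate by MTHFD1L, or oxidized to carbon dioxide by ALDH1L2. In the cytosol MTHFD1 takes up formate and supplies the units used for purines and thymidylate. Serine also gives the carbon skeleton of cysteine in the transsulfuration pathway, and ATF4, the transcription factor that cells make when amino acids run short, is a known activator of several of these genes.

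Reads on genes numbered 27250993 to 44596870 per library (median 32857536), and 15.9 to 17.1% of the reads per library were not assigned to a single gene. These lay outside genes (5.82 to 7.84%), fell on more than 1 gene (3.16 to 3.38%) or aligned to more than 1 place (6.08 to 6.81%). NFE2L2 itself was 1.79-fold higher in NRF2 than in GFP cells with Cyss (log2FC 0.84, SE 0.0378, adjusted p = 4.58e-10) and 1.73-fold higher without Cyss (log2FC 0.79, adjusted p = 6.38e-06), and reads of the transgene cannot be told apart from those of the endogenous gene. The labels call the line epithelial. Of the epithelial markers, CDH1, EPCAM, CLDN3, CLDN4, CLDN7, OCLN, KRT5 and KRT19 had at most 0.652 CPM in any library. The keratins KRT18, KRT14 and KRT8 were expressed, with medians of 32.5, 22.5 and 5.08 CPM. The 11 epithelial markers summed to 49.6 to 77.8 CPM (TMM-scaled counts relative to library size) and the 6 mesenchymal ones to 40500.0 to 43600.0 CPM, with VIM at a median of 4600.0 CPM. Without Cyss, the epithelial sum was 67.7 to 77.8 CPM in GFP cells against 57.1 to 64 CPM with Cyss, and in NRF2 cells 58.1 to 68.5 against 49.6 to 51.4 CPM. Most of it came from the keratins KRT18 and KRT14, and its part in the results below was not tested. In such bulk samples, fewer cells that make an RNA and less RNA per cell cannot be told apart. Replicate 1 of the NRF2 cells without Cyss had the largest share of reads outside genes, 7.84% against 5.82 to 6.69% in the others.

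Removal of Cyss raised the RNA of the whole serine synthesis branch and of all 4 mitochondrial folate enzymes, and neither cytosolic enzyme rose. In GFP cells, 7 of the 9 genes were called higher and 0 lower, where a call is an adjusted p under 0.1 with a log2FC above 0.32 in size. Of all 17452 genes tested in that comparison, 1.57% were called higher and 0.533% lower. In NRF2 cells the same count was 7 of 9 higher and 0 lower, against 6.81% higher and 5.14% lower among 17266 genes. The median log2FC of the 9 genes was 0.67 in GFP cells and 0.63 in NRF2 cells, against 0.002 and -0.012 over all genes tested. All 9 genes passed the filter on low values in every comparison, and the smallest raw count among them in any library was 556, for SHMT1. The 2 comparisons use different libraries.

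**Figure D1:**
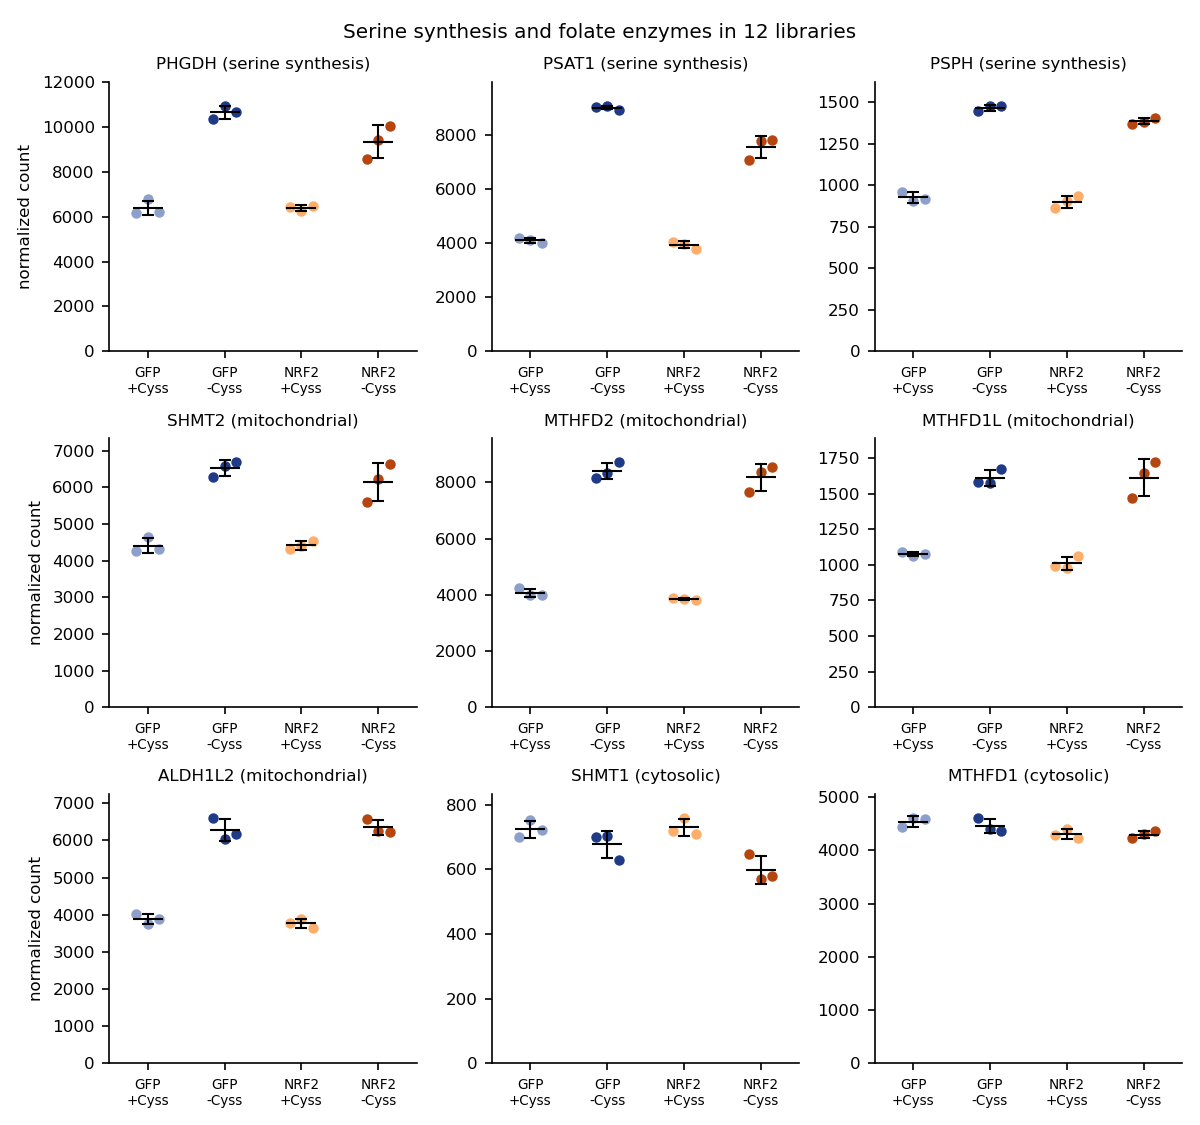
Normalized counts (vertical axis, from 0, scaled over the 12 libraries) of the 9 genes by group; points are libraries, bars the mean and SD of 3. PSAT1 goes from 4019 to 4195 up to 8946 to 9081 in GFP cells, whereas MTHFD1 stays between 4227 and 4608 in all 12 libraries.

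Upstream sequence is shown so that 4 genes that rose with Cyss deprivation and both cytosolic genes that did not can be read side by side. RefSeq promoters (GRCh38.p14 table) were given for 6 of the 9 genes, and each 250-base stretch before the transcription start was placed on GRCh37 by its single exact match. PSPH, SHMT2 and ALDH1L2 were without an entry. Capitals mark CCAAT and TGATGNAA (or the longer TGATGCAAT) on either strand, so that ATTGG is CCAAT on the other strand. For MTHFD1L the first of 4 listed starts was used. The PSAT1 window ends at the base before the GENCODE gene, whereas the others lie partly or wholly inside the extent of their GENCODE gene, which includes transcripts with other starts.
PHGDH, chr1:120254307-120254556, plus strand: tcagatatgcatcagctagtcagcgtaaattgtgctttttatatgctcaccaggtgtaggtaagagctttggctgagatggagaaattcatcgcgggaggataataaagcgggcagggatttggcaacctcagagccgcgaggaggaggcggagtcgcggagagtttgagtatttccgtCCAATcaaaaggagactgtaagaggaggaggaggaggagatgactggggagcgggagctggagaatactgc
PSAT1, chr9:80911791-80912040, plus strand: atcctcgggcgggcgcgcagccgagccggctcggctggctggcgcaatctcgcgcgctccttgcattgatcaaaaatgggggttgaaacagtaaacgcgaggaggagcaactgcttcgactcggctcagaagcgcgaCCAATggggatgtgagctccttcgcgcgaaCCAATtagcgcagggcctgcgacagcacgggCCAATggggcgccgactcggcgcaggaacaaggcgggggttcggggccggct
MTHFD2, chr2:74425492-74425741, plus strand: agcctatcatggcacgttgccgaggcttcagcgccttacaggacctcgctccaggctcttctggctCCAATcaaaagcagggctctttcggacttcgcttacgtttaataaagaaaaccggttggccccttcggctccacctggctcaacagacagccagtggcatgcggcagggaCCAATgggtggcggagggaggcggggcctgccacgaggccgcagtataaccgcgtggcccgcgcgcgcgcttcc
MTHFD1L, chr6:151187372-151187621, plus strand: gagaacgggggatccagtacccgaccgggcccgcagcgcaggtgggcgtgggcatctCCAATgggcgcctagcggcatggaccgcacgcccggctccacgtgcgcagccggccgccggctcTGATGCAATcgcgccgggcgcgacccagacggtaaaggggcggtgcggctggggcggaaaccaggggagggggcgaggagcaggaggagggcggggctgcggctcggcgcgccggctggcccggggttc
SHMT1, chr17:18266865-18267114, minus strand: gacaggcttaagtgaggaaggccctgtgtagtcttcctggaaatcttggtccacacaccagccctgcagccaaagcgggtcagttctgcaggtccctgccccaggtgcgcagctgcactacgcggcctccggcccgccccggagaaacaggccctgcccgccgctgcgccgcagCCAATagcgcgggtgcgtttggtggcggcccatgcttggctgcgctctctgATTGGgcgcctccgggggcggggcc
MTHFD1, chr14:64854821-64855070, plus strand: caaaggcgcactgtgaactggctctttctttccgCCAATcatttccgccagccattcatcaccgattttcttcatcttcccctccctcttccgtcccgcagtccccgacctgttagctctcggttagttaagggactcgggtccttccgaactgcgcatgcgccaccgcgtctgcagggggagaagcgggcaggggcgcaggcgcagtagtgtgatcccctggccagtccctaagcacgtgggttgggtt
The CCAAT box was in all 6 windows, with 3 copies in PSAT1, 2 in MTHFD2 and SHMT1, and 1 in PHGDH, MTHFD1 and MTHFD1L, and it was in 32% of 35116 RefSeq windows of this length. It therefore occurred in genes that rose and in genes that did not. TGATGCAAT, the composite element bound by CCAAT/enhancer-binding proteins together with ATF4, was in MTHFD1L alone of the 6 and in 0.216% of all windows, and its looser form TGATGNAA, which overlaps it there, was in the same gene alone and in 3.14% of all windows. TGACNNNGC, the core of the antioxidant response element that NRF2 binds, was in 0 of the 6 windows and in 10.9% of all. These are matches of letters in 250 bases, and elements outside them were not searched.

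PHGDH (GRCh37 chr1:120191034-120286841, plus strand) catalyses the first and committed step of serine synthesis. In GFP cells its normalized counts were 6181, 6772 and 6217 with Cyss and 10352, 10934 and 10673 without. The NRF2 libraries had 6443, 6248 and 6492 with Cyss and 8591, 9411 and 10039.8 without. Every library without Cyss lay above every library with Cyss, and the 3 NRF2 libraries without Cyss all lay below the 3 GFP ones. Of all genes tested, 10.8% in GFP cells and 18.7% in NRF2 cells had every library without Cyss above every library with it. In Cyss-free medium, 19.7% had all NRF2 libraries below the GFP ones. These shares also apply to the separations given for the genes below. PHGDH rose 1.67-fold in GFP cells (log2FC 0.74, SE 0.0434, adjusted p = 2.04e-07) and 1.46-fold in NRF2 cells (log2FC 0.55, SE 0.0504, adjusted p = 1.6e-06).

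PSAT1 (chr9:80912041-80945009, plus strand), the aminotransferase of the second step, had the largest rise of the 9 in GFP cells. Its normalized counts there were 4195, 4126 and 4019 with Cyss and 9049, 9081 and 8946 without. For NRF2 cells the values were 4044, 3991 and 3791 with Cyss and 7083, 7792 and 7810.5 without. The media did not overlap in either cell population, and without Cyss the NRF2 libraries again lay below the GFP ones. The rise was 2.2-fold in GFP cells (log2FC 1.14, SE 0.0357, adjusted p = 5.49e-10), which ranked 40 of 17452 genes by log2FC, and 1.92-fold in NRF2 cells (log2FC 0.94, SE 0.0488, adjusted p = 5.28e-09), which ranked 236 of 17266.

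PSPH (chr7:56078744-56119297, minus strand), is the phosphatase that releases serine in the last step. The GFP libraries held normalized counts of 962, 903 and 915 with Cyss and 1448, 1477 and 1478 without. With exogenous NRF2 the counts were 862, 903 and 936 with Cyss and 1372, 1384 and 1406 without. The media did not overlap, and the rises of 1.59-fold in GFP cells (log2FC 0.67, SE 0.0474, adjusted p = 1.39e-06) and 1.54-fold in NRF2 cells (log2FC 0.63, SE 0.0533, adjusted p = 7.73e-07) were close to each other.

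SHMT2 (chr12:57623356-57628718, plus strand) makes glycine and the one-carbon unit in mitochondria, and it had the lowest log2FC of the 7, though close to that of MTHFD1L in GFP cells. In GFP cells its normalized counts were 4265, 4643 and 4319 with Cyss and 6281, 6589 and 6689 without. The counts of NRF2 cells were 4308, 4405 and 4548 with Cyss and 5595, 6215 and 6633 without, with replicate 1 the lowest of the last group. The media did not overlap. The rise was 1.48-fold in GFP cells (log2FC 0.57, SE 0.0441, adjusted p = 3.5e-06) and 1.39-fold in NRF2 cells (log2FC 0.48, SE 0.0532, adjusted p = 1.22e-05).

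MTHFD2 (chr2:74413299-74444692, plus strand) oxidizes the mitochondrial one-carbon unit and is otherwise best known from embryonic and tumour cells. Normalized counts in GFP cells were 4245, 3985 and 3992 with Cyss and 8157, 8329.5 and 8725 without. The NRF2 libraries had 3878, 3844 and 3826 with Cyss and 7644, 8369 and 8543 without. The lowest library without Cyss, at 7644, was far above the highest with Cyss, at 4245. The rise was 2.07-fold in GFP cells (log2FC 1.05, SE 0.0422, adjusted p = 5.61e-09, rank 59) and 2.13-fold in NRF2 cells (log2FC 1.09, SE 0.0468, adjusted p = 1.39e-09, rank 165), the largest of the 9 genes there.

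MTHFD1L (chr6:151186815-151423023, plus strand) releases formate from mitochondrial folate. Its normalized counts in GFP cells were 1094, 1061 and 1074 with Cyss and 1582, 1571 and 1673 without. For NRF2 cells the values were 989.7, 978 and 1064 with Cyss and 1467, 1644 and 1722 without. The media did not overlap, and MTHFD1L rose 1.5-fold in GFP cells (log2FC 0.58, SE 0.0469, adjusted p = 4.78e-06) and 1.6-fold in NRF2 cells (log2FC 0.68, SE 0.0608, adjusted p = 1.35e-06).

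ALDH1L2 (chr12:105413562-105501421, minus strand) oxidizes the formyl unit to carbon dioxide with formation of NADPH. The GFP libraries held normalized counts of 4013, 3742 and 3874 with Cyss and 6602, 6032 and 6171 without. With exogenous NRF2 the counts were 3775, 3889.7 and 3655 with Cyss and 6576, 6258 and 6223 without. All libraries without Cyss lay above all with Cyss, and the rise was 1.62-fold in GFP cells (log2FC 0.70, SE 0.0433, adjusted p = 3.44e-07) and 1.69-fold in NRF2 cells (log2FC 0.76, SE 0.0486, adjusted p = 4.73e-08). ALDH1L1, its cytosolic counterpart, had 0 to 2 reads in any library, so no comparison could be made between the pair.

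SHMT1 (chr17:18231174-18266877, minus strand), the cytosolic hydroxymethyltransferase, did not rise in either cell population. Normalized counts in GFP cells were 699.9, 752 and 720.4 with Cyss and 699, 702 and 628 without, and these ranges overlapped (log2FC -0.09, 95% interval -0.224 to 0.0347, adjusted p = 0.43). The counts of NRF2 cells were 719, 758 and 709.9 with Cyss and 647, 569 and 578 without. Here the libraries without Cyss were all lower, as they were for 18.7% of the 17266 genes tested. The difference of SHMT1 passed the adjusted p but not the fold threshold (log2FC -0.28, SE 0.0702, adjusted p = 0.0095). Without replicate 1 of the NRF2 cells without Cyss the log2FC was -0.351 and it passed both. The share of all genes that passed the adjusted p alone was not computed for this comparison.

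MTHFD1 (chr14:64854749-64930175, plus strand), the cytosolic enzyme that takes up formate, changed least of the 9 with Cyss deprivation in both cell populations. Its normalized counts in GFP cells were 4431, 4608 and 4585 with Cyss and 4605, 4409.8 and 4359.7 without. The NRF2 libraries had 4294, 4402 and 4227 with Cyss and 4229, 4307 and 4358 without. The media overlapped in both cell populations, and the 95% interval of the log2FC was -0.104 to 0.0599 in GFP cells and -0.0921 to 0.0925 in NRF2 cells.

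**Figure D2:**
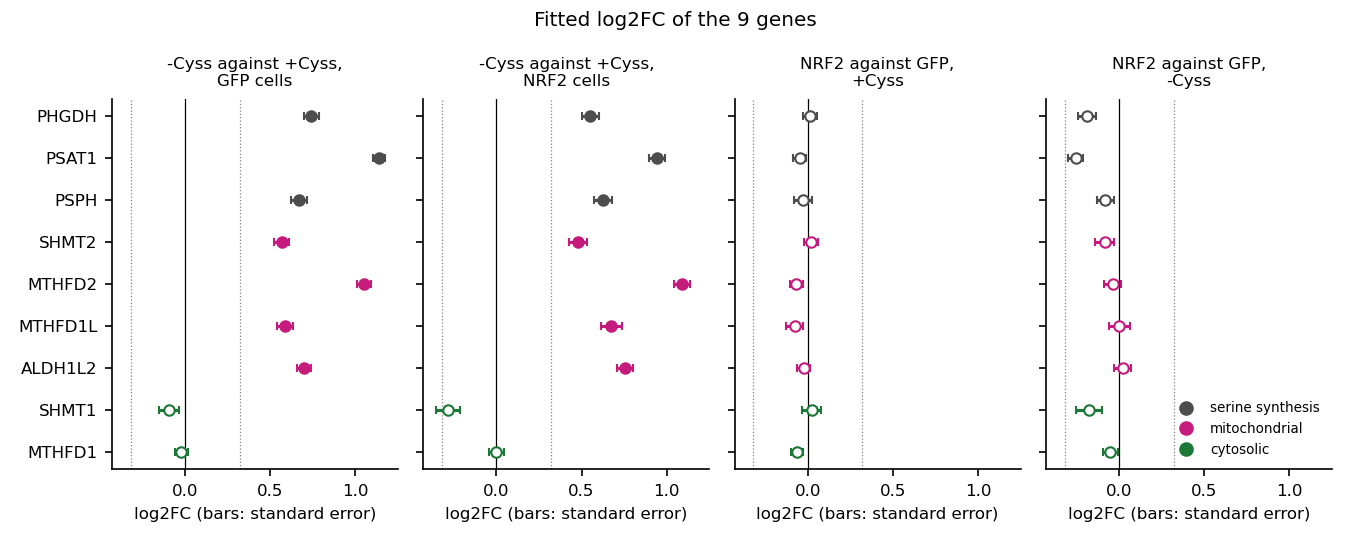
Fitted log2FC (horizontal axis, bars 1 standard error) of the 9 genes in the 4 comparisons; filled points passed both thresholds, open points did not, and dotted lines mark a log2FC of 0.32 in either direction. The 3 serine synthesis genes and 4 mitochondrial genes are filled for Cyss deprivation in both cell populations, and no gene is filled for NRF2 against GFP cells.

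The compartments were compared within each library as the log2 ratio of normalized counts of a mitochondrial enzyme to its cytosolic relative, which depends little on the scaling between libraries. In GFP cells MTHFD2 over MTHFD1 went from -0.16 ± 0.0824 (SD, n = 3) with Cyss to 0.91 ± 0.088 without. In NRF2 cells it went from -0.16 ± 0.0286 to 0.93 ± 0.0641. Thus there were fewer reads on MTHFD2 than on MTHFD1 in every library with Cyss and more in every library without. SHMT2 over SHMT1 went from 2.60 ± 0.021 to 3.27 ± 0.128 in GFP cells and from 2.60 ± 0.0721 to 3.36 ± 0.217 in NRF2 cells. MTHFD1L over MTHFD1, 2 enzymes that both handle formate, went from -2.08 ± 0.0515 to -1.47 ± 0.0815 in GFP cells and from -2.09 ± 0.0921 to -1.42 ± 0.0968 in NRF2 cells. The media did not overlap for any of these ratios.

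The change with Cyss deprivation, averaged over both cell populations, was 1.08 for MTHFD2 over MTHFD1, 0.712 for SHMT2 over SHMT1 and 0.639 for MTHFD1L over MTHFD1 on the log2 scale, or 2.11-fold, 1.64-fold and 1.56-fold. For each of these the exact permutation p was 0.005 (two-sided, medium permuted within GFP and within NRF2 cells), the smallest that the 400 arrangements can give, and 0.01 after Benjamini-Hochberg adjustment over the 6 ratio tests. A p of 0.005 follows from the separation of the media in both cell populations, so it adds nothing to that separation. Exogenous NRF2 moved the same ratios by 0.004, 0.043 and 0.018 (exact permutation p = 0.905, 0.635 and 0.705, adjusted 0.905, 0.846 and 0.846), all less than the mean SD within groups of 0.0659, 0.11 and 0.0806. MTHFD1 is in both the MTHFD2 and the MTHFD1L ratio, so those tests are not independent. The plot of ratios by library shows these values.

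**Figure D3:**
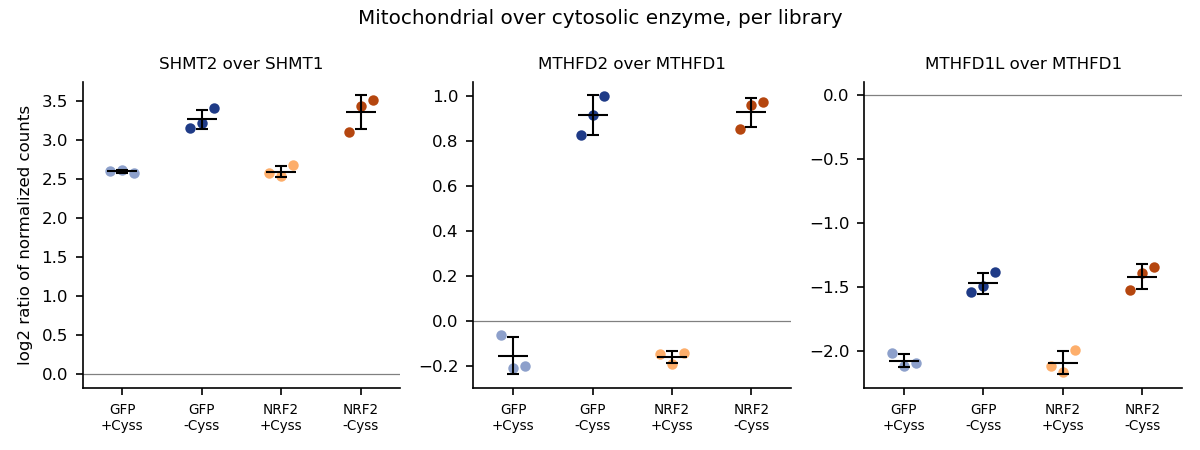
Log2 ratio of normalized counts of a mitochondrial to a cytosolic enzyme (vertical axis) by group; points are libraries, bars the mean and SD of 3, and the grey line marks equal counts. The libraries without Cyss lie above those with Cyss in all 3 panels, and MTHFD2 over MTHFD1 lies at -0.209 to -0.062 in GFP cells with Cyss and at 0.825 to 1.001 without.

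Levels of different genes were compared as CPM per kb of exon, with exon lengths from GENCODE. In GFP cells with Cyss the level was highest for PSAT1 at 55.5 ± 1.2 CPM per kb (SD, n = 3), followed by SHMT2 at 28.6 ± 1.33, PHGDH at 20.7 ± 1.07, ALDH1L2 at 12.2 ± 0.424 and MTHFD2 at 10.6 ± 0.385. PSPH had 9.99 ± 0.332, MTHFD1 7.79 ± 0.165, MTHFD1L 6.55 ± 0.0989 and SHMT1 3.07 ± 0.112 CPM per kb. The ranges of the neighbours MTHFD2 and PSPH nearly touched, at 10.36, and no ranges overlapped. Without Cyss, MTHFD2 reached 21.9 ± 0.757 and was above ALDH1L2 at 19.7 ± 0.933, and MTHFD1L at 9.79 ± 0.339 was above MTHFD1 at 7.64 ± 0.222. The 4 mitochondrial enzymes held 84.2% ± 0.328 of the summed level of the 6 folate enzymes in GFP cells with Cyss and 89.9% ± 0.477 without. In NRF2 cells these shares were 84.4% ± 0.402 and 90.2% ± 0.528. The order rests on the gene length used, and so do both of these changes of order. By the longest transcript, MTHFD2 was above ALDH1L2 already with Cyss (18.6 against 14.1 CPM per kb in GFP cells), and MTHFD1L stayed below MTHFD1 without Cyss (13.8 against 19.5). By that length PHGDH had 59.8 and PSAT1 55.5 CPM per kb in GFP cells with Cyss, and the mitochondrial shares were 74.4% with and 83.1% without Cyss.

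With Cyss present, none of the 9 genes passed the test between NRF2 and GFP cells. In that comparison edgeR called 0 of 9, against 1.56% of 17449 genes in either direction, 0 had an unadjusted p under 0.05, and DESeq2 also called 0. The log2FC of NRF2 against GFP cells lay between -0.08 for MTHFD1L and 0.02 for SHMT1, and the widest 95% interval, that of SHMT1, ran from -0.0945 to 0.14. MTHFD1 and MTHFD2 had all 3 NRF2 libraries below the GFP ones (log2FC -0.06 and -0.07, adjusted p = 0.371 and 0.345), as did 14.8% of all genes tested. NRF2 and GFP cells are compared here on the same libraries as in the deprivation comparisons, so the 2 kinds of comparison are not independent.

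Without Cyss, PSAT1 and PHGDH were lower in NRF2 than in GFP cells, by less than the fold threshold. PSAT1 had a log2FC of -0.26 (SE 0.0462, adjusted p = 0.00311), or 0.838 of the GFP level, and PHGDH had -0.19 (SE 0.053, adjusted p = 0.0259), or 0.877 of it. With the fold threshold 0 of the 9 genes were called, against 10.1% of 17297 genes in either direction, and DESeq2 called 0. An unadjusted p under 0.05 was found for 3 of 9, a rule for which the share of all genes was not computed. SHMT1 was among them (log2FC -0.18, SE 0.0744), and its adjusted p of 0.11 did not pass. With the adjusted p alone 2 of 9 were lower, against 14.7% of all genes tested. PHGDH, PSAT1, PSPH and MTHFD1 had all 3 NRF2 libraries below the GFP ones, as did 19.7% of all genes tested, and the log2FC of -0.08 for PSPH and -0.05 for MTHFD1 did not pass (adjusted p = 0.263 and 0.427). The mitochondrial genes had log2FC between -0.09 for SHMT2 and 0.02 for ALDH1L2, and none passed.

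Whether the response to Cyss deprivation itself differed between the cell populations was tested by an interaction term fitted to the 12 libraries together. PSAT1 rose less in NRF2 cells by 0.195 on the log2 scale (log2FC -0.20, SE 0.0584, adjusted p = 0.0434) and PHGDH by 0.191 (log2FC -0.19, SE 0.0692, adjusted p = 0.0913). These 2 of 9 genes passed an adjusted p under 0.1, as did 15.1% of 17674 genes in either direction. The cytosolic SHMT1 had a difference of similar size that did not pass (log2FC -0.19, 95% interval -0.382 to 0.00479, adjusted p = 0.214). For the 4 mitochondrial genes the difference was between -0.09 for SHMT2 (95% interval -0.243 to 0.063) and 0.09 for MTHFD1L (-0.0714 to 0.253), and none passed. The difference of PHGDH lost its call in 10 of the 12 fits with 1 library left out, in DESeq2 (adjusted p = 0.11) and at an adjusted p under 0.05, and that of PSAT1 in 3 of the 12. Without replicate 1 of the NRF2 cells without Cyss, the lowest of its group for both genes, PHGDH had -0.142 (adjusted p = 0.168) and PSAT1 -0.159 (adjusted p = 0.0679). ATF4 rose 1.79-fold without Cyss in GFP cells (log2FC 0.84, SE 0.0357, adjusted p = 1.04e-08) and 1.65-fold in NRF2 cells (log2FC 0.72, SE 0.0624, adjusted p = 9.01e-07), and its interaction did not pass (log2FC -0.12, SE 0.0785, adjusted p = 0.385). In Cyss-free medium, ATF4 differed between the cell populations by the adjusted p alone, with less in NRF2 cells (log2FC -0.18, SE 0.0621, adjusted p = 0.0573), with all 3 NRF2 libraries below the GFP ones. By the adjusted p alone 14.7% of all genes tested were lower there, and 19.7% had all NRF2 libraries below.

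With both thresholds, the other genes of the pathway were called at shares near those of all genes. Counts under looser rules in this paragraph have no such share beside them, so they cannot be read as an excess. Of 38 further genes in 6 lists (glycine cleavage, folate carriers and polyglutamation, other cytosolic and other mitochondrial folate enzymes, purine synthesis, and mitochondrial serine carriers with serine breakdown), 37 were in the files and 31 passed the filter on low values in the deprivation comparisons. In GFP cells, 0 of the 31 were called in either direction by edgeR or DESeq2, and their median log2FC was -0.006. An unadjusted p under 0.05 was found for 7 of the 31, a rule for which the share of all genes was not computed. Over all genes, 1.57% were called higher and 0.533% lower, so a count of 0 among 31 is not a result about these genes. By the adjusted p alone 3 of the 31 were lower: SFXN1, a mitochondrial serine carrier (log2FC -0.19, adjusted p = 0.0331), PPAT, which starts purine synthesis (log2FC -0.26, adjusted p = 0.0551), and SLC19A1, the reduced folate carrier (log2FC -0.17, adjusted p = 0.0859). The share of all genes lower by the adjusted p alone was not computed here. The medians of the tested genes of the lists were 0.103 for serine carriers and breakdown, 0.059 for glycine cleavage, 0.017 for purine synthesis, -0.011 for other cytosolic and -0.03 for other mitochondrial folate enzymes, and -0.115 for folate carriers and polyglutamation. In NRF2 cells, 1 of the 31 was called higher and 2 lower: MTHFD2L, a mitochondrial relative of MTHFD2 (log2FC 0.70, SE 0.107, adjusted p = 0.000264), AMT, the aminomethyltransferase of glycine cleavage (log2FC -0.49, SE 0.133, adjusted p = 0.0156), and SLC46A1, the proton-coupled folate transporter (log2FC -0.47, SE 0.193, adjusted p = 0.0964). DESeq2 called 1 higher and 1 lower. With both thresholds, 6.81% of all genes were called higher and 5.14% lower. By the adjusted p alone 9 of the 31 passed, and the share of all genes under that looser rule was not computed. With exogenous NRF2 in the presence of Cyss, 0 of 30 further genes were called by edgeR or DESeq2, against 1.56% of all genes called by edgeR. Of the 30, 8 had an unadjusted p under 0.05, and the share of all genes under that p was not computed. Without Cyss 2 of 31 were called, against 10.1% of all genes. MTHFD2L was called higher in NRF2 cells and SRR, the serine racemase, lower (log2FC -0.33, SE 0.0795, adjusted p = 0.0131).

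MTHFD2L differed from MTHFD2 in its pattern over the groups. The GFP libraries held normalized counts of 603, 408 and 419 with Cyss and 393, 412 and 469 without. For NRF2 cells the values were 545, 483 and 411 with Cyss and 729, 900.3 and 694 without. Only the NRF2 libraries without Cyss stood above the others, which overlapped. Its response differed between NRF2 and GFP cells by 0.85 on the log2 scale (SE 0.191, adjusted p = 0.00971), and without Cyss it was 1.82-fold higher in NRF2 cells (log2FC 0.87, SE 0.103, adjusted p = 0.00037). For MTHFD2 the interaction log2FC was 0.04 (95% interval -0.0876 to 0.172).

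**Figure D4:**
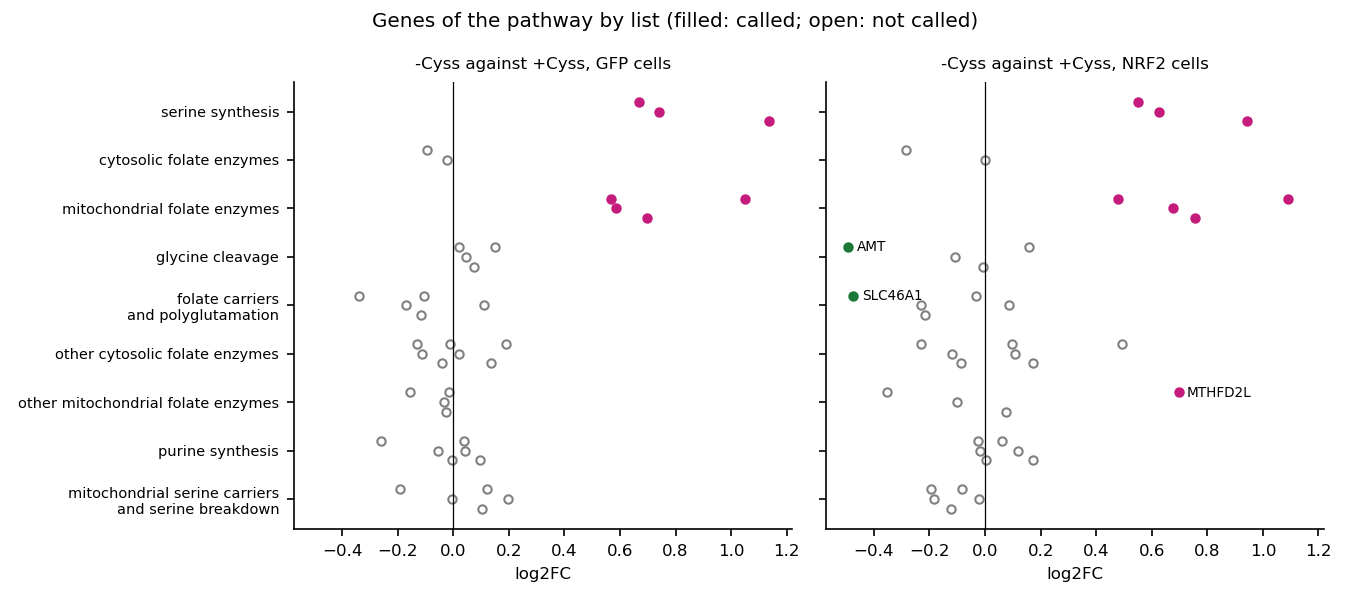
Fitted log2FC for Cyss deprivation (horizontal axis) of the tested genes of 9 pathway lists, in GFP cells (left) and NRF2 cells (right); each point is a gene, filled where called, and points are offset vertically for legibility. The serine synthesis and mitochondrial folate enzymes lie between 0.57 and 1.14 in GFP cells, whereas the other 31 pathway genes lie between -0.34 and 0.20 there.

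The genes most like each of the 9 over the 12 libraries were found by Pearson correlation of log2 CPM among the 13528 genes whose mean normalized count reached 50. These libraries fall into sets with and without Cyss for the 7 genes that rose, so the coefficients describe that split and carry no p. PSAT1 was most like ASNS, the asparagine synthetase (r = 0.997), SLC1A4, a neutral amino acid transporter (r = 0.994), and CHAC1, a glutathione-degrading enzyme (r = 0.994). MTHFD2 was most like CEBPG, a bZIP transcription factor (r = 0.997), and GARS, a tRNA synthetase (r = 0.995), and SHMT2 like SARS (r = 0.994) and ATF4 (r = 0.993). PSPH was most like YARS, another tRNA synthetase (r = 0.996), and ALDH1L2 like DDR2, a collagen receptor (r = 0.997). PHGDH was most like PSAT1P3, a pseudogene of PSAT1 (r = 0.993), followed by ATF4 (r = 0.992), and MTHFD1L like XBP1, a transcription factor of the unfolded protein response (r = 0.991). The cytosolic genes had weaker partners, RP11-3B12.1 for SHMT1 (r = 0.955) and CKAP5, a microtubule-binding protein, for MTHFD1 (r = 0.9).

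Reads from near-identical copies and from overlapping genes could not be told apart in full. Rows named as processed copies held reads equal to 11.3 to 13% of those of PSAT1, 11.6 to 15% of MTHFD1, 8.94 to 10.4% of MTHFD2, 1.87 to 4.68% of SHMT1 and up to 0.117% of PSPH. The counts of PSAT1, MTHFD1 and MTHFD2 are therefore uncertain. Reads that aligned to more than 1 place were counted for no gene, so these shares do not bound that uncertainty. With the reads of these copies added, the log2FC in GFP cells was 1.14 for PSAT1, 1.05 for MTHFD2 and -0.02 for MTHFD1. Strand was not used in counting, and exons of genes on the opposite strand covered 11.6% of the MTHFD2 exons (SLC4A5), 8.96% of those of MTHFD1 and 7.67% of those of SHMT2 (a long noncoding RNA each), 2.81% of SHMT1 (SMCR8) and 1.53% of ALDH1L2 (NOPCHAP1). PHGDH, PSAT1, PSPH and MTHFD1L had none.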

How the data were processed

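RNA of the 12 samples was made into libraries with a TruSeq v2 kit, which keeps no strand, and sequenced single end. The authors mapped reads to hg19 with TopHat 2.1.0 (Bowtie) and counted them per gene with HTSeq 0.11.2 on exons, without strand, and the deposited values are these raw counts by symbol, not normalized. The gene annotation is not given in the sources used here. Depth was 27250993 to 44596870 reads on genes. Reads not assigned to a single gene made 15.9 to 17.1% of each file and were left out, as were 523 rRNA-named genes, which left 55242.

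Counts were analysed in R 4.3.3 with edgeR 4.0.16 (quasi-likelihood test, TMM, Benjamini-Hochberg over all genes tested), on the 6 libraries of each comparison, for genes whose mean after TMM scaling reached 10 counts in 1 of the groups or both. Calls required a log2FC beyond 0.32 in either direction together with an adjusted p under 0.1, and for the interaction the p alone. Folds are from fitted log2FC. Printed normalized counts and CPM use TMM over 12 libraries, with 1 normalized count added before ratios were logged. Python 3.11.15 ran the exact permutation tests of ratios. GENCODE on GRCh37 gave positions and lengths, and it is not the annotation of the counts. Alternatives were DESeq2 1.42.0 and its size factors, other filters and thresholds, library-size scaling, a replicate block, left-out libraries and, chosen after seeing the data, rRNA genes kept and copies added. The procedure was tested on simulated data.

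The members, lists and tests were chosen with earlier results of these data known, so they are not independent evidence. The 9 genes, 38 further genes of 6 lists, the 3 genes most like each member, ATF4 and NFE2L2 were named by rule. Replicates of a group differed by more than counting noise (chi-square per degree of freedom 2.22 to 13). The labels give no batch.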

Additional observations from a re-analysis of the deposited data

Results flagged for a closer look

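Of 40 genes tested, the 9 members and 31 others of the pathway, 7 (17.5%) had a response to Cyss deprivation that differed between NRF2 and GFP cells by the interaction test on 12 libraries (edgeR, adjusted p under 0.1), against 15.1% of all genes, so the count is not a result about the pathway. In NRF2 cells the response was smaller for PSAT1 (log2 difference -0.195, SE 0.0584, adjusted p = 0.0434) and PHGDH (-0.191, SE 0.0692, adjusted p = 0.0913), the first steps of serine synthesis. It was more positive for MTHFD2L (0.854, SE 0.191, adjusted p = 0.00971), a mitochondrial relative of MTHFD2, for PPAT (0.323, SE 0.0964, adjusted p = 0.0433), which starts purine synthesis, and for SLC25A32 (0.19, SE 0.0707, adjusted p = 0.0992), the mitochondrial folate carrier. It was more negative for AMT (-0.644, SE 0.204, adjusted p = 0.0555), of the glycine cleavage system, and SRR (-0.305, SE 0.102, adjusted p = 0.068), serine racemase. SHMT1, a cytosolic folate enzyme, had a difference close to that of PSAT1 and PHGDH (-0.189, SE 0.0922), but it did not pass (adjusted p = 0.214). PPAT had a mean of 1174 normalized counts (SD 93.9, n = 3) with and 977 (SD 64.6) without Cyss in GFP cells, and 1092 (SD 52.6) and 1136 (SD 83.4) in NRF2 cells. AMT had low counts, with group means of 86 to 121. The adjusted p was above 0.05 for 4 of these 7. With 1 library left out, the other pathway genes passing numbered 1 to 5 with a more positive response in place of 3, and 0 to 2 with a more negative one in place of 2.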

How the results depend on the processing

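The counts of 7 of 9 genes called higher with Cyss deprivation, in GFP and in NRF2 cells, were the same in all 11 alternative settings and with each library left out. In GFP cells, the 7 log2FC lay between 0.546 and 1.153 with a library left out. For NRF2 cells, SHMT1 was called lower, so that 1 member was lower in place of 0, with scaling by library size (log2FC -0.342), with no fold threshold (-0.283) and without replicate 1 of the NRF2 cells without Cyss (-0.351), and the count with a left-out library was 0 to 1. For NRF2 against GFP cells in Cyss-free medium, 2 members were lower without the fold threshold in place of 0, as were 14.7% of all genes tested. The interaction count of 2 became 1 in DESeq2 and at an adjusted p under 0.05, and 0 to 2 with a library left out. PSAT1 lost it without replicate 1 of NRF2 cells with Cyss (adjusted p = 0.101), replicate 3 of GFP cells with Cyss (0.105) or replicate 2 of GFP cells without Cyss (0.105).

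Differences close to 0 changed sign. For Cyss deprivation in NRF2 cells, MTHFD1 was at -0.059 by library size and -0.009 with copies added, and -0.015 to 0.017 with a library left out. For NRF2 with Cyss, PHGDH was between -0.013 and 0.057, SHMT1 between -0.008 and 0.051 and SHMT2 between -0.01 and 0.055 with a library left out. For NRF2 without Cyss, MTHFD1L was at -0.03 and ALDH1L2 at -0.012 by library size, and with a library left out MTHFD2 was between -0.064 and 0.007, MTHFD1L between -0.038 and 0.063 and ALDH1L2 between -0.009 and 0.055. In the interaction, MTHFD1 was at -0.03 and MTHFD2 at -0.01 by library size. The NRF2 effect on the ratios was -0.018 to 0.028 for MTHFD2 over MTHFD1, -0.007 to 0.045 for MTHFD1L over MTHFD1 and 0.003 to 0.105 for SHMT2 over SHMT1 with a library left out, and the effects of Cyss deprivation were 1.059 to 1.104, 0.617 to 0.666 and 0.672 to 0.774.

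By the longest transcript the mitochondrial shares were 74.4% and 83.1% in GFP cells and 74.6% and 83.5% in NRF2 cells, with and without Cyss. Same-numbered replicates did not deviate together throughout (correlations of -0.206 to 0.249), so the numbers were not taken as pairs. Between NRF2 cells with and without Cyss, however, the same-numbered correlations (0.093 to 0.183) all exceeded those of different numbers (-0.138 to 0.004). The labels name no pairs. The replicate number as a block gave 7 of 9 called higher with Cyss deprivation in each cell population and an interaction count of 2. It changed no call of the 9 genes, with MTHFD1L at 0 for NRF2 against GFP cells in Cyss-free medium. Among the other pathway genes, the count called lower for NRF2 against GFP cells in Cyss-free medium was 2 under the block in place of 1. Over the other settings, 0 to 3 of them were lower with Cyss deprivation in GFP cells, and in NRF2 cells 1 to 3 were higher and 1 to 6 lower. For NRF2 against GFP cells in Cyss-free medium, 1 to 4 were higher and 1 to 4 lower over those settings. Shares of all genes under the changed settings were mostly not computed, so these counts are not a result about the pathway. With a library left out, 0 to 2 in place of 1 were lower with exogenous NRF2 in Cyss-free medium (SRR in the full fit). The cause of these changes was not tested.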
